A study of Mus musculus with 8 samples.

Results

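Voltage-gated sodium and calcium channels and the potassium channels form a large group of membrane proteins, and this group of genes was followed through the bisulfite sequencing data of the hippocampus. Genes were taken by symbol: Scn followed by a number and a or b for sodium channels, Cacna, Cacnb and Cacng for calcium channels, and Kcn followed by a letter for potassium channels. The RefSeq annotation of GRCm38 held 138 such genes, 14 sodium, 26 calcium and 98 potassium, of which 134 were protein-coding. Of these, 62 had at least 1 called region, namely 7 sodium, 15 calcium and 40 potassium channel genes. They accounted for 136 of the 9329 region entries in the tables, and for 116 of 8271 regions once transcripts of 1 gene with the same feature, sequence context, genotype and direction were counted once.

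The mice were 6-month-old males on a C57BL/6N background, and the DNA came from whole dissected hippocampus. The groups were Mutyh-/- mice, Ogg1-/- mice, DKO mice obtained by crossing those lines and lacking both genes, and WT mice, with 2 libraries in each. Mutyh and Ogg1 are DNA glycosylases of base excision repair that act on adenine mispaired with oxidized guanine and on oxidized guanine itself. Whether the 2 libraries within a group represent different mice is not stated, and their spread may be technical. Whole hippocampus mixes neurons and glia, and a shift in the share of a cell type and a change of methylation within cells cannot be told apart. The tissue could not be checked against marker expression, because the tables hold called methylation regions only.

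A region was called by the authors when every knockout library differed from every WT library in the same direction, in 4 library pairs, with a relative ratio beyond 0.1 in size. The relative ratio is the difference of both scores (knockout minus WT) over their average, on a score taken to run from 1 for no methylation to 2 for full methylation, a reading that no source states. Called regions are therefore separated between the groups by construction. Recomputed from the deposited scores, which have 2 decimals, the smallest relative ratio of an entry was under 0.1 in 13 of the 136 channel entries, down to 0.0957, and all 13 could reach 0.1 within the rounding of the scores. All 136 channel entries had both knockout libraries on 1 side of both WT libraries, against 99.2% of all entries. Apart from that rounding, at a WT level of 60% the relative ratio lets a gain through only from 16.8 points and a loss from 15.2 points, so the narrow span of sizes given here begins at that limit. A gain could not be called at all above a WT level of 81%. A gain or loss denotes such a call, expressed as knockout minus WT in percentage points, and no new test was run on single regions because 2 libraries against 2 cannot reach an exact two-sided p below 0.333. A gene without a called region was not shown to be unchanged.

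Sodium channels open on depolarization and carry the upstroke of the action potential. Voltage-gated calcium channels turn depolarization into calcium entry that drives transmitter release, dendritic signalling and transcription, and potassium channels repolarize the membrane and set the resting potential and firing rate. Pore subunits of the sodium and calcium families are large single proteins that work with smaller auxiliary subunits, whereas most potassium channels assemble from several pore subunits. In mammalian DNA, methylation sits mostly on cytosines followed by guanine (CG), and neurons also carry methylation on cytosines in the CHH context, in which neither of the next bases is guanine. Methylation close to a transcription start site (TSS) usually accompanies silence, whereas transcribed gene bodies are commonly methylated.

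CG calls at the start site were found in 8 of the 138 channel genes. Over all genes there were 901 called TSS windows, beside 49939 annotated genes, and this difference was not tested. The 4 channel genes with a CG call at the TSS in Ogg1-/- are shown by sequence. In that knockout Kcnj10 and Kcnj16 lost CG methylation around the TSS, and Kcnj9 and Kcna5 gained it. No channel gene had a TSS gain in the other knockouts. Each run is the 250 bases before the start site from the RefSeq promoter table of GRCm38.p6, written 5′ to 3′ on the strand of the gene, with the CG dinucleotides in capitals. Kcnj10 lies on the plus strand (chr1:172340960-172341209), Kcnj16 on the plus strand (chr11:110997237-110997486), Kcnj9 on the minus strand (chr1:172329323-172329572) and Kcna5 on the minus strand (chr6:126535556-126535805). The Kcnj16 start is that of a shorter transcript and lies inside the gene.
Kcnj10: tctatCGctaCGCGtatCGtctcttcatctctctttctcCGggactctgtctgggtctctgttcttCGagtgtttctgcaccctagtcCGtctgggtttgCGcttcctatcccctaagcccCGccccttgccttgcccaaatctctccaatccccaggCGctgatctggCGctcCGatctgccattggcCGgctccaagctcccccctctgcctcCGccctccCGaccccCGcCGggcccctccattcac
Kcnj16: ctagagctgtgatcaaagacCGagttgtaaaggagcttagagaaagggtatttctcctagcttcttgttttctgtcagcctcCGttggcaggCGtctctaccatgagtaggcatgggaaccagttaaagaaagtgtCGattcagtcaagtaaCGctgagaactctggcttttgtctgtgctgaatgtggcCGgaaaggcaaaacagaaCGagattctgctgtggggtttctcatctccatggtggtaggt
Kcnj9: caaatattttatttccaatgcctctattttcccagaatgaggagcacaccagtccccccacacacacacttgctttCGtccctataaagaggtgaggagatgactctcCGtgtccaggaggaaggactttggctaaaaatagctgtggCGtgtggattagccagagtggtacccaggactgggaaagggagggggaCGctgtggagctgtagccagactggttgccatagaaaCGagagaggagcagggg
Kcna5: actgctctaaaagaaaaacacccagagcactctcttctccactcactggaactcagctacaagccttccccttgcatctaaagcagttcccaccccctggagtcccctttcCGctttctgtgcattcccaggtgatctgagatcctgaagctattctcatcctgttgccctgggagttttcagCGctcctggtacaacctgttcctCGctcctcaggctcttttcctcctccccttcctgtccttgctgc
The Kcnj10 run held 17 CG dinucleotides, a number reached by 23.5% of the 32851 promoters in the table. The other runs held 7 in Kcnj16, 5 in Kcnj9 and 3 in Kcna5, near or below the median of 6 over all promoters, and 92.1% of promoters held at least 1. Both strands carry the same CG count, since CG reads the same in reverse complement. Of the 8 channel genes with a CG call at the TSS, 7 matched the promoter table, and the other is Kcnq1. The remaining matched genes were Kcnip2 with 15, Kcnh2 with 14 and Kcnip1 with 6.

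CG methylation of channel genes was mostly gained in gene bodies in all 3 knockouts. In Mutyh-/- the calls at gene ends were losses without exception, whereas in Ogg1-/- and DKO they went both ways. In Mutyh-/-, 11 regions gained and 12 lost CG methylation, with 11 gains and 1 loss in gene bodies, 4 losses and no gain at the TSS, and 7 losses and no gain at the transcription end site (TES). In Ogg1-/- there were 13 gains and 4 losses, of which gene bodies held 11 gains and no loss, the TSS 2 gains and 2 losses, and the TES 2 losses. In DKO there were 18 gains and 6 losses, with 15 gains and 3 losses in gene bodies, 2 losses at the TSS, and 3 gains and 1 loss at the TES. Over all genes, gains made up 45.9% of called CG gene bodies in Mutyh-/-, 54.7% in Ogg1-/- and 55.1% in DKO, whereas in the channel genes they made up 91.7%, 100% and 83.3%. At the TSS the shares of gains over all genes were 12.8% in Mutyh-/-, 12.1% in Ogg1-/- and 10.7% in DKO. At the TES they were 15.2% for Mutyh-/-, 16.1% for Ogg1-/- and 20.2% for DKO. The lean towards losses at the TSS and TES of channel genes thus followed the background, apart from the 2 TSS gains in Ogg1-/- and the 3 TES gains in DKO. The lean towards gains in gene bodies stood above the background when genes of all lengths were pooled, not in each length class. In genes over 200 kb, gains made up 86.2%, 89.8% and 92.0% of all called CG gene bodies in Mutyh-/-, Ogg1-/- and DKO. Channel genes of that length had 9, 9 and 12 gains there, and 0, 0 and 1 losses.

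In the CHH context every called channel region was a loss, 19 of them in Mutyh-/-, 25 in Ogg1-/- and 8 in DKO. Losses also made up 99.5%, 99.8% and 98% of all CHH regions in these genotypes, so the direction was that of the whole table. No channel gene was among the 8 entries called in the CHG context.

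CG regions of any feature were called in 22 of 138 channel genes in Mutyh-/- (15.9%, exact binomial 95% interval 10.3% to 23.1%), 17 in Ogg1-/- (12.3%, 7.34% to 19.0%) and 24 in DKO (17.4%, 11.5% to 24.8%). The background over 49939 annotated genes was 2.94%, 2.46% and 2.96%, and over protein-coding genes 6.28%, 5.26% and 6.32%. CHH regions were called in 18 channel genes in Mutyh-/- (13.0%, 7.92% to 19.8%), 25 in Ogg1-/- (18.1%, 12.1% to 25.6%) and 8 in DKO (5.8%, 2.54% to 11.1%). The background was 2.64%, 3.37% and 1.53% of annotated genes, and 5.5%, 7.02% and 3.17% of protein-coding genes. The DKO interval for CHH includes the protein-coding share. The intervals cover counting of genes only, and neighbouring genes are not independent. Of the 62 genes, 26 had CG regions only, 19 had CHH regions only and 17 had both.

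Among sodium channels, the pore gene Scn1a, which serves fast-spiking inhibitory neurons, was called in its gene body in all 3 knockouts. Its region (chr2:66271782-66439837) covers the gene between the flanking windows. Its CG level was 83% and 81.5% in Mutyh-/- libraries, against 53% and 67.5% in WT libraries. The Ogg1-/- comparison gave 83.5% and 75.5% in Ogg1-/- libraries, against 61.5% and 51% in WT libraries. The DKO comparison gave 91.5% and 75.5% in DKO libraries, against 62.5% and 54% in WT libraries. The gains were 22, 23.2 and 25.2 points in Mutyh-/-, Ogg1-/- and DKO, with a DKO spread of 11.3 points (SD, n = 2). Calling selects for separated groups, and the separation holds for levels averaged over pairs. Pair by pair, Ogg1-/- replicate 2 read 94% beside 70% in WT replicate 1, and 57% beside 40% in WT replicate 2. Within the same gene, the CHH level of the start window was 25% and 21.5% in Ogg1-/- libraries, against 40% and 42% in WT libraries, a loss of 17.8 points. That window overlaps an exon of Gm13629, a long non-coding RNA gene on the other strand, and bisulfite calls at the window belong to both.

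Scn9a, a pore gene best known from nociceptors, lies 39.2 kb from Scn1a on chromosome 2 and was called for a gene-body CG gain in DKO, while the difference from the single knockouts was not tested. Its level was 78.5% and 58.5% in DKO libraries, against 52.5% and 42% in WT libraries, so the lower DKO library was 6 points above the higher WT library while the DKO libraries differed by 20 points. Scn2b encodes a beta subunit that modulates gating and acts in cell adhesion. It gained at the TES (chr9:45129071-45131070), where the level was 86% and 73% in DKO libraries, against 59% and 49% in WT libraries. The gain of 25.5 points was the largest of any channel gene at a TSS or TES, and its window lies wholly within an intron of the non-coding gene Gm10684 on the other strand.

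Scn10a and Scn11a lie 34.4 kb apart on chromosome 9 and are known for sensory neurons. Both were called for CHH losses in their gene bodies and neither for CG. Scn10a was called in all 3 knockouts, with 23% and 24% in Mutyh-/- libraries, against 38.5% and 52% in WT libraries, then 25% and 23% in Ogg1-/- libraries, against 41.5% and 46% in WT libraries, and 29.5% and 27% in DKO libraries, against 53.5% and 44% in WT libraries. The losses of Scn10a were 21.8, 19.8 and 20.5 points in Mutyh-/-, Ogg1-/- and DKO. Scn11a was called in Mutyh-/- at 27% and 14.5% in Mutyh-/- libraries, against 44% and 41% in WT libraries, with Mutyh-/- libraries 12.5 points apart.

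Calcium channel pore genes held the largest differences of the group. Cacna1d encodes an L-type pore that opens at modest depolarization, and its gene body (chr14:30040941-30490156) had a CG level of 81.5% and 74.5% in Ogg1-/- libraries, against 46.5% and 49.5% in WT libraries. With 78 ± 4.95% in Ogg1-/- and 48 ± 2.12% in WT (SD, n = 2 each), the gain of 30 points was the largest gain of all channel regions. Cacna1e, the R-type pore, followed with 88% and 80% in Ogg1-/- libraries, against 59% and 51.5% in WT libraries, a gain of 28.8 points, and was also called in Mutyh-/- at 76.5% and 80.5% in Mutyh-/- libraries, against 60% and 50.5% in WT libraries. In both genes the knockout libraries were above WT with a gap exceeding the spread within either group.

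Cacna1c, the L-type pore most abundant in brain and heart, ran the other way. Its gene body (chr6:118588240-119195409) was at 67% and 66% in DKO libraries, against 87% and 84% in WT libraries, a CG loss of 19 points in a gene of 610 kb. It was the only loss among the 31 CG gene-body calls of channel genes over 200 kb. CHH methylation of Cacna1c was 25.5% and 20% in Mutyh-/- libraries, against 40.5% and 46.5% in WT libraries, and 22.5% and 19% in Ogg1-/- libraries, against 60.5% and 42.5% in WT libraries. The Ogg1-/- loss of 30.8 points was the largest CHH loss of the group, but WT replicate 1 alone stood at 60.5%, and without it the difference was -24 points. Cacna1d also lost CHH methylation, by 22.2 points in Mutyh-/- (27.5% and 24% in Mutyh-/- libraries, against 48% and 48% in WT libraries) and by 16.5 points in Ogg1-/- (27.5% and 18.5% in Ogg1-/- libraries, against 41% and 38% in WT libraries). Cacna1s, the skeletal muscle pore, lost 16.8 points in Ogg1-/-. At the TES of Cacna1h, a T-type pore, DKO libraries gained 22.2 points, with 83.5% and 82% in DKO libraries, against 59.5% and 61.5% in WT libraries, in a window that also covers exons of the neighbouring gene Tpsg1. Cacna1a, Cacna1b, Cacna1f, Cacna1g and Cacna1i had no called region.

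Auxiliary subunits of calcium channels were called in every subclass. The alpha2delta subunits carry the pore to the surface, and all 4 of their genes had a region. Cacna2d1 gained CG methylation in its gene body in all 3 knockouts, with 78.5% and 78.5% in Mutyh-/- libraries, against 73.5% and 46.5% in WT libraries, 77% and 100% in Ogg1-/- libraries, against 70.5% and 64% in WT libraries, and 100% and 75% in DKO libraries, against 72% and 59% in WT libraries. The gap between the groups in DKO, 3 points, was the smallest of any channel region, and single libraries read 100%. Cacna2d3 gained 19.5 points in Mutyh-/- (85.5% and 78% in Mutyh-/- libraries, against 61.5% and 63% in WT libraries) and 20 points in DKO (87.5% and 86.5% in DKO libraries, against 57% and 77% in WT libraries). Cacna2d4, which lies 39.1 kb from Cacna1c on chromosome 6, was called for CHH losses in all 3 knockouts, at 22.5% and 21% in Mutyh-/- libraries, against 45.5% and 38% in WT libraries, 22% and 24% in Ogg1-/- libraries, against 46% and 35.5% in WT libraries, and 32% and 18.5% in DKO libraries, against 51.5% and 41.5% in WT libraries. Cacna2d2 lost CHH methylation in Ogg1-/- by 18.8 points.

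The cytoplasmic beta subunits gave one call each way in CG and a repeated CHH loss. Cacnb2 gained 21 points in its gene body in DKO, at 100% and 83.5% in DKO libraries, against 63.5% and 78% in WT libraries, and Cacnb1 lost 19 points at its TES in Mutyh-/-, at 43% and 43.5% in Mutyh-/- libraries, against 63% and 61.5% in WT libraries. Cacnb4 lost CHH methylation by 20 points in Ogg1-/- and 22.2 points in DKO, where it was at 25% and 26.5% in DKO libraries, against 49% and 47% in WT libraries. Of the Cacng genes, several of which encode partners of AMPA-type glutamate receptors, 3 neighbours on chromosome 11 had CHH losses and none had a CG region. Cacng4 was called in all 3 knockouts, at 23.5% and 30% in Mutyh-/- libraries, against 50% and 41.5% in WT libraries, 27% and 27% in Ogg1-/- libraries, against 46% and 47.5% in WT libraries, and 26% and 28.5% in DKO libraries, against 47% and 46.5% in WT libraries. Its mean losses of 19, 19.8 and 19.5 points lay within 1 point of each other, but the values behind them were less close. Leaving out 1 library moved the Ogg1-/- difference between -24 and -15.5 points. Pair by pair, Mutyh-/- replicate 2 read 43% beside 62% in WT replicate 1, and 17% beside 33% in WT replicate 2. Cacng1 lost 22.5 points at its TSS in Ogg1-/-, and Cacng5 lost 18.2 points at its TES in Mutyh-/-.

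Among voltage-gated potassium channels, the A-type genes were called repeatedly. Kcnd2 and Kcnd3 encode pores that inactivate quickly and limit dendritic excitability, and Kcnip4 encodes one of the calcium-binding proteins attached to them. All 3 genes gained gene-body CG methylation in all 3 knockouts. Kcnd2 was at 69.5% and 82.5% in Mutyh-/- libraries, against 45% and 59% in WT libraries, 77.5% and 86.5% in Ogg1-/- libraries, against 50% and 72.5% in WT libraries, and 76.5% and 79% in DKO libraries, against 51% and 64% in WT libraries, with gains of 24, 20.8 and 20.2 points. Kcnip4, the longest channel gene with a call at 1140 kb, was at 96.5% and 91% in Mutyh-/- libraries, against 73.5% and 73.5% in WT libraries, 90% and 92% in Ogg1-/- libraries, against 63.5% and 71.5% in WT libraries, and 100% and 95.5% in DKO libraries, against 76% and 73.5% in WT libraries. In DKO, Kcnip4 averaged 97.8 ± 3.18%, the highest mean of any channel gene body with a gain, against 74.8 ± 1.77% in WT (SD, n = 2 each).

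Kcnd3 combined a body gain with losses elsewhere. Its gene-body CG level was 72.5% and 82.5% in Mutyh-/- libraries, against 57.5% and 58% in WT libraries, 86% and 89% in Ogg1-/- libraries, against 69.5% and 68% in WT libraries, and 66.5% and 76% in DKO libraries, against 53.5% and 44% in WT libraries. At its TES (chr3:105673003-105675002) the CG level was 55.5% and 60% in Mutyh-/- libraries, against 78% and 80% in WT libraries, a loss of 21.2 points in the genotype in which the body gained 19.8 points. CHH methylation of the Kcnd3 body was 21% and 22.5% in Ogg1-/- libraries, against 36.5% and 46.5% in WT libraries, and 23.5% and 26.5% in DKO libraries, against 49.5% and 50% in WT libraries. With all libraries kept, the DKO loss of 24.8 points was the largest CHH loss in DKO. The DKO difference was -17 points without DKO replicate 1 and -32.5 points without DKO replicate 2. Among the other genes of this partner family, Kcnip1 and Kcnip2 were called once each in CG, at the TSS: Kcnip1 lost 18.5 points in Mutyh-/- (41.5% and 37% in Mutyh-/- libraries, against 57% and 58.5% in WT libraries) and Kcnip2 lost 19.5 points in DKO (38.5% and 38% in DKO libraries, against 58% and 57.5% in WT libraries). Kcnip1 and Kcnip3 also lost CHH methylation in their bodies, by 18.5 points in Ogg1-/- and 18 points in Mutyh-/-.

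Several other voltage-gated pores had gene-body CG gains in single genotypes. They were found for Kcnh7 and Kcnq3 in Mutyh-/- (22 and 19.8 points), for Kcnc2 and Kcnh8 in Ogg1-/- (19.5 and 22 points), and for Kcnb2, Kcnh1, Kcnq1 and Kcnq5 in DKO (21, 21.2, 20.2 and 22.2 points). Kcnh7 belongs to the ERG-type channels, Kcnq3 and Kcnq5 carry the M-current that holds back repetitive firing, and Kcnb2 carries delayed rectifier current. Kcnh7 was at 86% and 77.5% in Mutyh-/- libraries, against 66.5% and 53% in WT libraries. In Ogg1-/-, Kcnh8 was at 87% and 96.5% in Ogg1-/- libraries, against 69.5% and 70% in WT libraries. Kcnq5 rested on unequal libraries, with 88.5% and 62% in DKO libraries, against 52.5% and 53.5% in WT libraries, and the DKO spread was 18.7 points (SD, n = 2). Kcns3, a silent subunit that modifies other pores, gained 20.2 points in DKO, and at 61 kb it was the shortest channel gene with a gene-body gain.

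Losses of CG in this class sat at gene ends. At a TSS, Kcnh2, the ERG channel of cardiac repolarization, lost 19.8 points in Mutyh-/- (42.5% and 50% in Mutyh-/- libraries, against 69% and 63% in WT libraries). This Kcnh2 window lies wholly inside the gene, at the start of a shorter transcript. Kcnq1 lost 19 points at its TSS in Mutyh-/- (42.5% and 42% in Mutyh-/- libraries, against 62% and 60.5% in WT libraries), while its gene body gained in DKO (71% and 80.5% in DKO libraries, against 50.5% and 60.5% in WT libraries). The Kcnq1 body contains the start of Kcnq1ot1, an imprinted antisense RNA that had no region of its own, and the Kcnq1 TSS window had the most CG dinucleotides of any called channel window, 102 in 2000 bases. At the TES, the silent subunit Kcng3 lost 24.2 points in DKO (55.5% and 59.5% in DKO libraries, against 81% and 82.5% in WT libraries), in a window wholly inside the annotated gene. Kcna5 was the exception, with a TSS gain in Ogg1-/- of 20.2 points (64.5% and 68% in Ogg1-/- libraries, against 44% and 48% in WT libraries), and no other Kcna gene was called.

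Kcnma1 encodes the large-conductance calcium-activated potassium channel that shortens action potentials, and it gained gene-body CG methylation in every knockout. It was at 87.5% and 85.5% in Mutyh-/- libraries, against 64.5% and 63% in WT libraries, 81.5% and 85.5% in Ogg1-/- libraries, against 64.5% and 64.5% in WT libraries, and 88% and 84% in DKO libraries, against 64.5% and 69% in WT libraries. Averaged over pairs, the libraries of each group lay close together. Pair by pair, Ogg1-/- replicate 1 read 88% beside 67% in WT replicate 1, and 75% beside 58% in WT replicate 2. The gains in Kcnma1 were 22.8, 19 and 19.2 points. Its CHH level in Mutyh-/- was 21% and 24% in Mutyh-/- libraries, against 40% and 41% in WT libraries. Of the beta subunits of this channel, Kcnmb2 gained 20.2 points in CG in Ogg1-/- and lost 21.2 points in CHH in Mutyh-/-, and Kcnmb3 lost 21.5 points in CHH in Ogg1-/-. The small-conductance gene Kcnn3 lost 22.5 points of CHH in Ogg1-/-. The genes Kcnn1, Kcnn2, Kcnn4, Kcnt1, Kcnt2 and Kcnu1 had no called region.

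Inward rectifiers gave the one start site that was called in all 3 knockouts. Kcnj10 encodes the potassium channel through which astrocytes clear extracellular potassium, and its TSS window (chr1:172340210-172342209) lost CG methylation in every knockout. The window reaches 1 kb to each side of the start and overlaps an exon of Kcnj10 only. The level was 24% and 31% in Mutyh-/- libraries, against 47.5% and 48% in WT libraries. The Ogg1-/- comparison gave 30.5% and 24.5% in Ogg1-/- libraries, against 51% and 50% in WT libraries, and the DKO comparison gave 18% and 30% in DKO libraries, against 46.5% and 39.5% in WT libraries. The losses were 20.2, 23 and 19 points. In the start window that holds the printed CG-rich run, all 6 knockout libraries lay below the WT libraries of their comparison, which calling selects for. Read pair by pair, DKO replicate 1 stood at 18% in both of its pairs, against 43% and 33% in WT replicates 1 and 2. The 3 comparisons share the same WT libraries and are not independent repeats of this difference.

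Kcnj16, whose protein joins that of Kcnj10 in a mixed channel, lost 21 points at a TSS in Ogg1-/- (38% and 43.5% in Ogg1-/- libraries, against 64.5% and 59% in WT libraries) and 18 points of CHH in its body. That TSS window lies wholly inside the gene, at the start of a shorter transcript. Kcnj9, a subunit of the G protein-gated channels, lies 11.9 kb from Kcnj10 on chromosome 1 and was called the other way at its start. The Kcnj9 TSS was at 64% and 56% in Ogg1-/- libraries, against 42% and 39.5% in WT libraries, a gain of 19.2 points, whereas its body was at 50% and 50% in DKO libraries, against 70.5% and 71% in WT libraries, a loss of 20.8 points in another genotype. Neighbouring start windows in 1 genotype thus differed in direction. Kcnj3, another G protein-gated subunit, gained 20 points in its body in Mutyh-/-, at 86% and 65.5% in Mutyh-/- libraries, against 51.5% and 60% in WT libraries.

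Other inward rectifiers lost CG methylation at the TES. Kcnj12 was at 63.5% and 61.5% in Mutyh-/- libraries, against 88% and 85% in WT libraries, a loss of 24 points, and the same window lost 22.8 points of CHH (26.5% and 23.5% in Mutyh-/- libraries, against 46.5% and 49% in WT libraries). It was the only channel window with losses in both contexts in 1 genotype, and the Kcnj12 body lost 19.5 points of CHH besides. Kcnj14 was called at the TES in Mutyh-/- (51.5% and 53% in Mutyh-/- libraries, against 81% and 69.5% in WT libraries) and in Ogg1-/- (59.5% and 43% in Ogg1-/- libraries, against 76.5% and 71% in WT libraries). Kcnj1, the channel of the renal tubule, lost CHH methylation by 18.2 points in Mutyh-/- and 22 points in Ogg1-/-, and Kcnj15 lost 16 points in Mutyh-/-.

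The tandem-pore channels, which carry background potassium current, had losses only. Kcnk3 lost 19 points of CG in its gene body in DKO (68% and 67.5% in DKO libraries, against 86.5% and 87% in WT libraries). Kcnk4, a mechanosensitive member, lost CG methylation at its TES in Mutyh-/- (44.5% and 39% in Mutyh-/- libraries, against 61% and 61% in WT libraries) and in Ogg1-/- (41% and 36% in Ogg1-/- libraries, against 54.5% and 59.5% in WT libraries), in a window that also covers exons of Catsperz. CHH losses were called for Kcnk5 in Mutyh-/- and Ogg1-/- (18 and 23.5 points), for Kcnk13 in Mutyh-/- (16 points) and for Kcnk2 in Ogg1-/- (18.5 points). Kcnk5 was at 18% and 21% in Ogg1-/- libraries, against 41.5% and 44.5% in WT libraries. Among the small auxiliary Kcne subunits, Kcne1 gained 21 points at its TES in DKO (83.5% and 84% in DKO libraries, against 59.5% and 66% in WT libraries) and Kcne4 lost 19 points at its TES in Mutyh-/- (38% and 33% in Mutyh-/- libraries, against 54.5% and 54.5% in WT libraries).

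**Figure D1:**
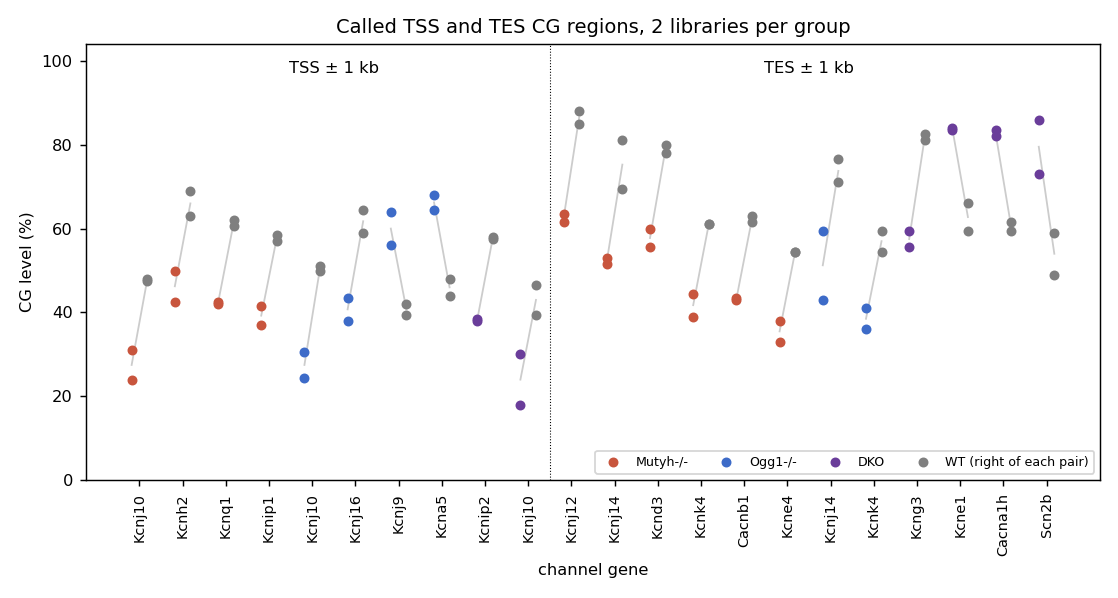
CG levels in percent at the called TSS and TES windows of the named channel genes, with the 2 knockout libraries left and the 2 WT libraries right of each gene name, and a grey line joining the group means. Most windows were lower in the knockout, and the upward exceptions are Kcnj9 and Kcna5 in Ogg1-/- and Kcne1, Cacna1h and Scn2b in DKO.

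The called TSS windows were not the most CG-rich ones. The 8 TSS windows with a channel CG call had a median of 44.5 CG dinucleotides in 2000 bases, against 66.5 in the 130 TSS windows of channel genes without one and 53 in the 901 called TSS windows of all genes. Their median ratio of observed to expected CG was 0.322, against 0.45 in uncalled channel windows and 0.392 in called windows of all genes. Kcnj10 with 67 CG dinucleotides and Kcnq1 with 102 stood at the high end, and Kcnj16 with 25 and Kcnj9 with 29 at the low end. At the TES the order was turned round, with a median of 30 in the 11 called channel windows and 23 in the 127 uncalled ones. Whether a window with few methylated cytosines could be called at all depends on the minimum of 3 sites, and its part in these values was not tested.

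Some channel regions were called in more than 1 knockout. The 3 comparisons share the same WT libraries and are not independent. Sharing over all genes is not given here, so the counts below stand without a background. Over the CG tables there were 46 pairs of a channel gene and a feature, of which 7 were called in all 3 knockouts, 4 in 2 and 35 in 1. The 7 were the gene bodies of Scn1a, Cacna2d1, Kcnd2, Kcnd3, Kcnma1 and Kcnip4, all gains, and the TSS of Kcnj10, a loss. Over the CHH tables there were 39 pairs, of which 3 (Scn10a, Cacna2d4 and Cacng4) were called in all 3 knockouts, 7 in 2 and 29 in 1. No pair was called in opposite directions in different knockouts.

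**Figure D2:**
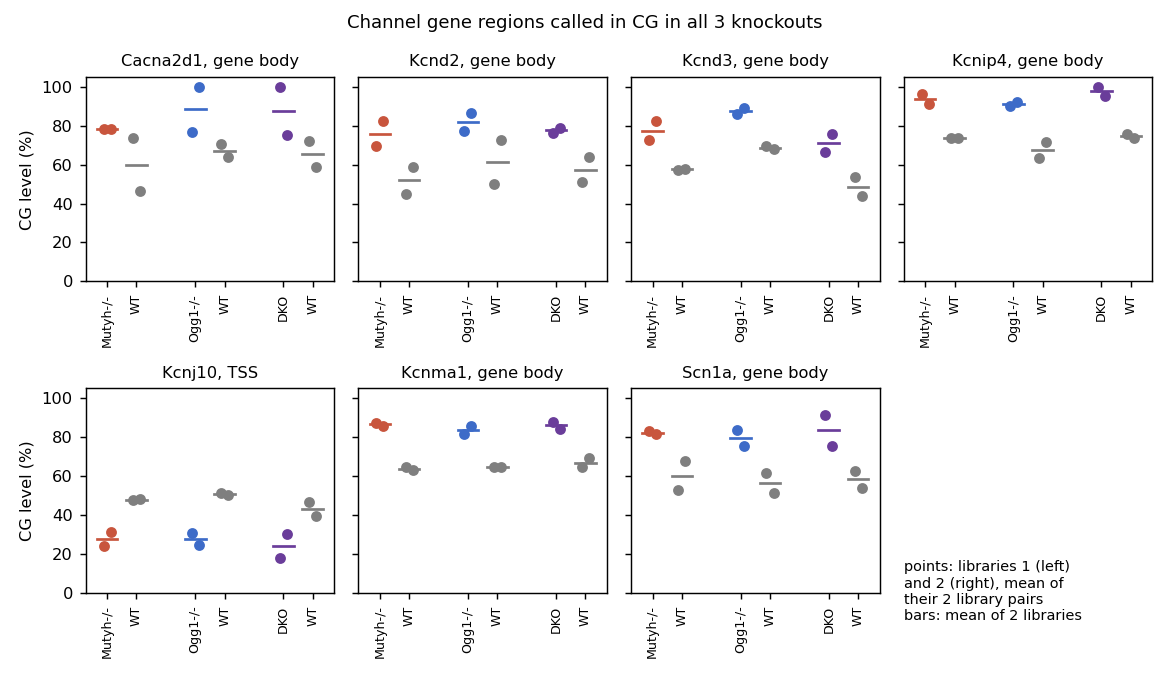
CG levels in percent of the 7 channel regions called in all 3 knockouts, with coloured points for the knockout libraries left of grey points for the WT libraries of the same comparison and bars for the mean of 2 libraries. The 6 gene bodies were higher and the Kcnj10 TSS lower in each knockout, and the same WT libraries read differently from one comparison to the next, as in Kcnd3.

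The repeated WT values give a measure of precision. Each library entered 2 pairs per comparison, and the 2 values of a WT library differed by a median of 7 points, those of a knockout library by 4 points. The largest disagreement was in the Kcnq5 body in the DKO comparison, where WT replicate 1 read 77% in the pair with DKO replicate 1 and 28% in the pair with DKO replicate 2. In the Kcnd2 body, Mutyh-/- replicate 1 read 55% beside 28% in WT replicate 1, and 84% beside 53% in WT replicate 2. The levels of both libraries thus shifted together between pairs, and the knockout stayed above WT in each, as a call requires. Across comparisons, the level of the same WT library in the same region had a median range of 6 points and a largest range of 24 points. The median SD between libraries was 5.3 points in knockouts and 5.66 in WT for CG gene-body gains, 3.18 and 1.06 for CG losses, and 2.12 and 3.18 for CHH losses. Gene-body gains were thus the least precise class, although the median gap between the groups over all channel entries was 15 points.

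Gene length separated the gains from the losses in gene bodies, apart from Cacna1c. The 23 channel genes with a CG gene-body gain had a median length of 385 kb, the 4 with a loss 23.8 kb, and the 19 with a CG call at the TSS or TES 32.1 kb. Over all 3 genotypes, channel genes over 200 kb had 30 gains and 1 loss, those of 50 to 200 kb had 7 gains and no loss, and those under 50 kb had 3 losses and no gain. Called gene bodies of all genes followed the same order, with 89.4%, 46.8% and 11.7% gains in these classes. The lean of long channel genes towards gains thus ran alongside that of all long genes. In the class of 50 to 200 kb the 7 gains came from Scn1a in 3 genotypes and from Scn9a, Kcnj3, Kcnc2 and Kcns3 in 1 each, so they rested on 5 genes.

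**Figure D3:**
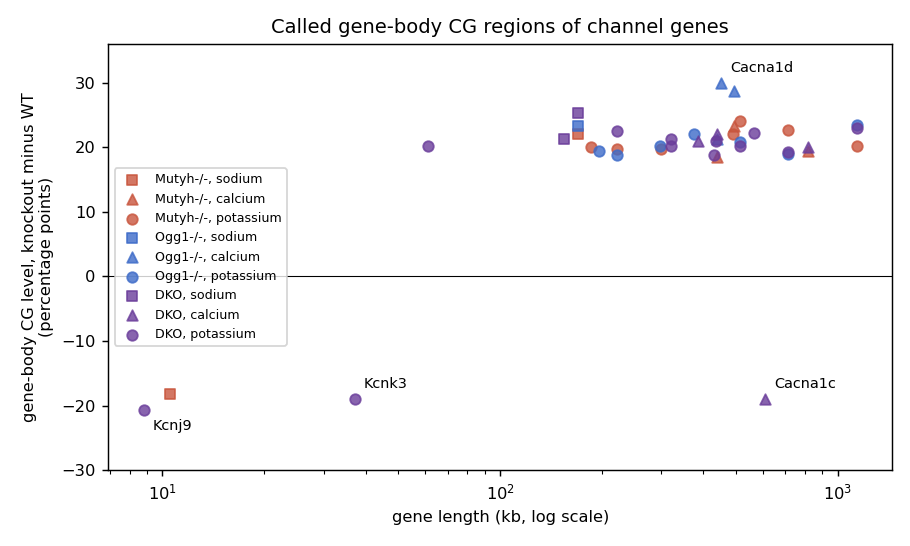
Difference in gene-body CG level, knockout minus WT in percentage points, against gene length in kb on a log axis, for the 41 called gene-body regions of channel genes, with colour for genotype and shape for family. Gains begin at 61 kb and lie between 18.5 and 30 points, losses lie at short genes, and Cacna1c in DKO is the long gene with a loss.

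Length also bore on how many channel genes were called. The annotated channel genes had a median length of 42.6 kb, against 17.2 kb for protein-coding genes and 5.95 kb for all annotated genes, and 26 of them were over 200 kb. Among protein-coding genes over 200 kb, CG regions were called in 11 of 26 channel genes in Mutyh-/- (42.3%, against 33.3% of all such genes), 9 in Ogg1-/- (34.6%, against 30.8%) and 13 in DKO (50.0%, against 36.9%). Under 50 kb the shares were 10.1% against 4.03% in Mutyh-/-, 7.25% against 3.36% in Ogg1-/- and 8.7% against 3.9% in DKO, on 7, 5 and 6 channel genes. For CHH under 50 kb they were 7.25% against 1.74% in Mutyh-/-, 5.8% against 2.05% in Ogg1-/- and 1.45% against 0.915% in DKO, on 5, 4 and 1 channel genes. From 50 to 200 kb the CHH shares were 17.9% against 15.6% in Mutyh-/-, 28.2% against 20.6% in Ogg1-/- and 10.3% against 9.36% in DKO. For CHH over 200 kb the shares were 23.1% against 29.5% in Mutyh-/-, 38.5% against 38.0% in Ogg1-/- and 11.5% against 17.0% in DKO. For CG from 50 to 200 kb they were 10.3% against 9.15% in Mutyh-/-, 7.69% against 6.98% in Ogg1-/- and 12.8% against 9.08% in DKO, on 4, 3 and 5 channel genes. Channel genes were thus above all protein-coding genes in the CG classes and in the CHH classes up to 200 kb, but several of these shares were near the background. For CHH over 200 kb they were below it in Mutyh-/- and DKO and near it in Ogg1-/-. None of these differences was tested.

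**Figure D4:**
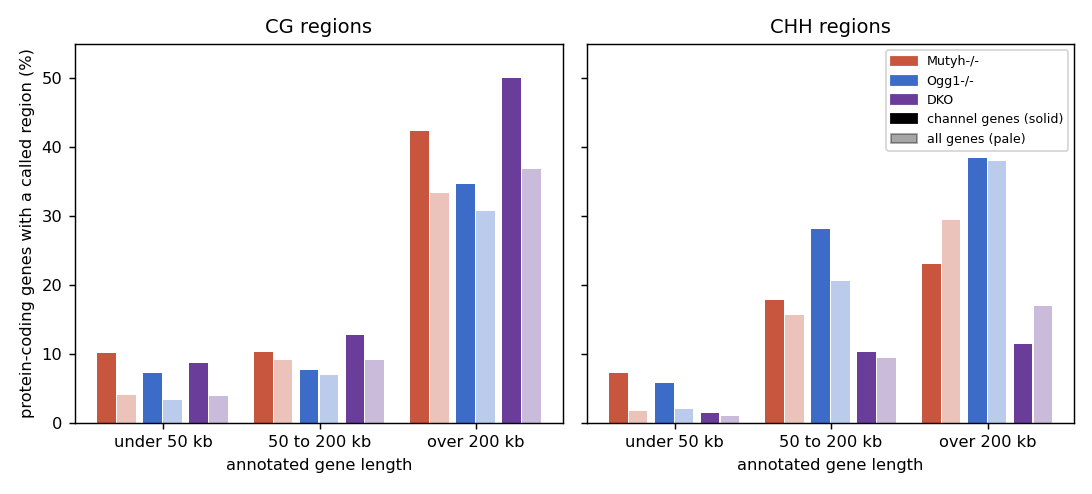
Percent of protein-coding genes with a called CG region (left) or CHH region (right) by gene length and genotype, with solid bars for channel genes and pale bars of the same colour for all protein-coding genes. The share climbs with length in both, to 50.0% of channel genes over 200 kb for CG in DKO against 36.9% of all genes.

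CHH losses of channel genes were alike in size and level. Of the 52 regions, 46 lay in gene bodies, 4 at the TES and 2 at the TSS. Gene-body losses were between 15 and 30.8 points, with a median of 19.2, and group means ran from 16.8% to 30.0% in knockouts and from 34% to 51.5% in WT. These levels are medians over the cytosines that the authors' tool retained in a region and are not the mean level of all CHH cytosines. The genes with a CHH body loss had a median length of 116 kb, between the genes with CG gains and those with CG losses. The smallest loss was that of Kcnb2 in Ogg1-/-, at 21% and 25.5% in Ogg1-/- libraries, against 36.5% and 40% in WT libraries. In DKO with all libraries kept, the 3 largest losses were in Kcnd3, Cacnb4 and Cacna2d4. The lowest levels there were in Kcnh8 at 19.5% and 14% in DKO libraries, against 30% and 38% in WT libraries. In Mutyh-/-, the largest losses were those of Kcnj12 at the TES, of Cacna1d, and of Scn10a and Scn11a at 21.8 points each. In Ogg1-/-, Cacna1c was followed by Kcnk5 with 23.5 points and by Cacng1 at its TSS and Kcnn3 with 22.5 points each.

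**Figure D5:**
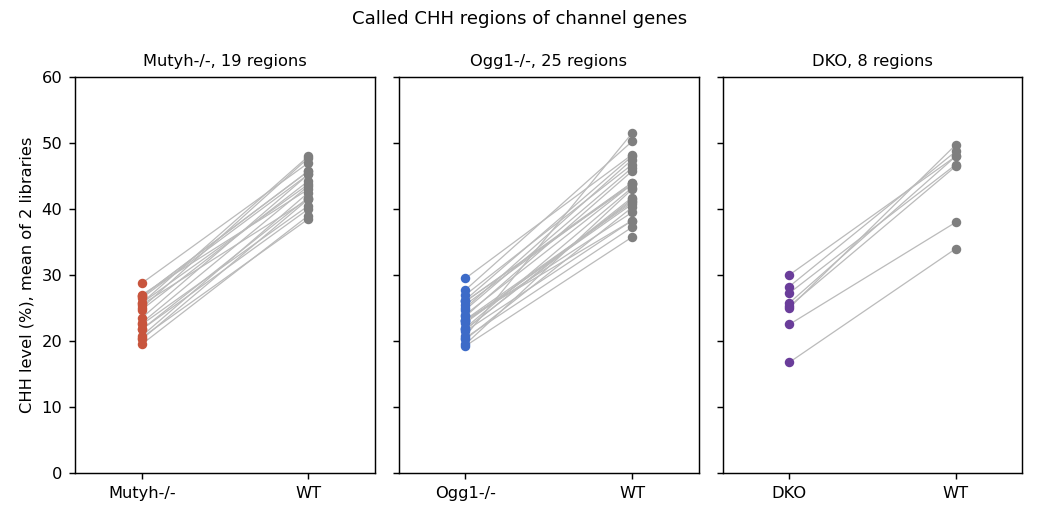
CHH level in percent of each called channel region, as the mean of 2 libraries, in the knockout (left of each panel) and in WT (right), joined by a line per region. All 52 lines slope the same way, with knockout means no higher than 30.0% and WT means no lower than 34%.

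In 6 cases a channel gene was called for the same feature in both contexts in 1 genotype. In 5 of them a gene body gained CG methylation and lost CHH methylation: Cacna1d in Ogg1-/- (30 and -16.5 points), Cacna2d1 in Ogg1-/- (21.2 and -16.5 points), Kcnd3 in Ogg1-/- (18.8 and -19.8 points) and in DKO (22.5 and -24.8 points), and Kcnma1 in Mutyh-/- (22.8 and -18 points). The exception was the TES of Kcnj12 with losses in both. Since nearly all CHH calls were losses and nearly all calls in long gene bodies were CG gains, this combination is what the directions of the tables already give.

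Genes that work with these channels, from a list of 30 partners, had CG regions in 10 genes in Mutyh-/- (33.3%), 8 in Ogg1-/- (26.7%) and 8 in DKO (26.7%), with 7, 7 and 5 gains and 4, 3 and 4 losses. CHH losses were called in 4, 5 and 3 of them, with no CHH gain. Dpp6, which forms the A-type complex with Kcnd2 and Kcnip4, gained gene-body CG methylation in all 3 knockouts. It was at 82% and 86.5% in Mutyh-/- libraries, against 65.5% and 64% in WT libraries. In DKO it was at 100% and 95%, against 75.5% and 77% in WT. In Ogg1-/- it was at 73.5% and 77.5%, against 38% and 71.5% in WT, with a WT spread of 23.7 points (SD, n = 2). The channel-binding factor Fgf13 gained 39.2 points in Mutyh-/-, with 93% and 88% in Mutyh-/- libraries, against 62.5% and 40% in WT libraries. Sptbn4, a spectrin that anchors channels at the axon initial segment, lost CG methylation in its body and at its TES in every knockout. The caspr-type gene Cntnap2 gained in Mutyh-/- and Ogg1-/- and lost in DKO, by 21.2, 21.8 and 21.5 points. Its WT readout differed between comparisons. WT libraries were at 71% and 70.5% beside Mutyh-/-, 69.5% and 74% beside Ogg1-/-, and 97% and 83% beside DKO. The DKO libraries were at 61.5% and 75.5%. Among 56 other cation and chloride channel genes, CG regions were called in 13 genes in Mutyh-/- (23.2%, with 7 gains and 6 losses), 10 in Ogg1-/- (17.9%, with 8 gains and 2 losses) and 12 in DKO (21.4%, with 11 gains and 2 losses), and CHH regions in 7, 7 and 6 genes, with 1 CHH gain in DKO. Over all annotated genes the shares with a CG region were 2.94%, 2.46% and 2.96% in this order of genotypes. For CHH regions the same shares were 2.64%, 3.37% and 1.53%. Of the 30 partners 13 are over 200 kb, as are 15 of the 56 other channels, and at that length 31.3%, 29.3% and 34.6% of all annotated genes had a CG region in Mutyh-/-, Ogg1-/- and DKO.

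Markers of hippocampal cell types were also among the called genes, against the shares of all annotated genes just given. Of 8 neuronal markers, 3 of them over 200 kb, 2 had CG regions in Mutyh-/-, 3 in Ogg1-/- and 2 in DKO. No CHH region was called in these 8 genes. Syt1, a synaptic vesicle calcium sensor, gained in its body in all 3 knockouts by 19.8, 23 and 26.5 points, whereas Gad1, an enzyme of GABA synthesis, lost 19.8 points in Mutyh-/- and 20.5 points in DKO. Of 6 astrocyte markers, 2, 1 and 1 had them in these genotypes. In Mutyh-/-, Aldh1l1 lost 23.8 points of CG at its TSS and Slc1a3 lost 20 points in its body, whereas Slc1a2 gained 18.8 points in its body in Ogg1-/- and in DKO, so the astrocyte markers did not move in 1 direction. Of 7 oligodendrocyte, 5 microglial and 5 vessel markers, 1, 0 and 1 had CG regions in Mutyh-/-, 1, 1 and 1 in Ogg1-/-, and 0, 0 and 1 in DKO. For CHH, losses were called in 3 of 5 vessel markers in Mutyh-/-, 4 in Ogg1-/- and 1 in DKO, in 1 of 5 microglial markers in Mutyh-/- and 2 in DKO, and in 1 astrocyte marker in DKO. These CHH calls had the direction of the channel CHH calls, which is that of nearly all CHH calls and so marks no link between them. Kdr, a receptor of vessel endothelium, was called for CHH in all 3 knockouts, at the TES in Mutyh-/- and in the gene body in Ogg1-/- and DKO. The part of cell composition in the channel results was not tested.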

How the data were processed

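Whole-genome bisulfite sequencing covered 8 hippocampal libraries, 2 per genotype. Per the submitters' notes, reads were inspected with FastQC and aligned to GRCm38 with Bismark 0.22.3. Cytosines covered by fewer than 4 reads were dropped by the authors, who then called regions with HMST-Seq-Analyzer by a Wilcoxon rank-sum test for each knockout and WT library pair, requiring 3 methylated sites at the TSS or TES (± 1 kb) and 5 in the gene body, at most 200 bp apart. The tables hold regions called in all 4 pairs, with transcripts of 1 gene as separate entries, and uncalled regions were not analysed here. Depth per region is unknown.

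The deposited values are a median methylation score on a scale of 1 to 2, which the authors gave for each library pair and taken here to be the methylated fraction with 1 added. A library's level is the score minus 1, times 100, averaged over its 2 pairs. The deposited relative ratios and p-values are the authors' own comparisons and were not used. The CHG table of DKO held no region.

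Groups followed the genotype in the labels. Regions were joined to the RefSeq annotation by symbol (4852 of 4901 matched), the longest entry was kept per gene, feature, context, genotype and direction, and counts were set beside those of all genes. No new test was run. Named with values were sodium channel genes, CG calls at the TSS or TES, regions called in all 3 knockouts or in both contexts, and the largest gene-body CG and CHH differences per genotype; others were added for their family after their values were seen. Some members are counted but not reported here by name. Members and lists were chosen with earlier results of these data known. Alternatives were stricter relative ratios, a ceiling on WT levels, other ways of counting entries, same-numbered library pairs, leaving out each library, and gene length classes. The code (Python 3.11.15, pandas 2.3.3, numpy 2.4.6, pysam 0.24.0, matplotlib 3.10.9) was tested on simulated data.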

Additional observations from a re-analysis of the deposited data

How the results depend on the processing

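The counts depended most on the size threshold. With a relative ratio beyond 0.15 in all 4 pairs, 1 CG gain (Cacna1d in Ogg1-/-, against 13 in the deposited calls) was left, and 0 were left of every other count, namely 11 gains and 12 losses in Mutyh-/-, 4 losses in Ogg1-/-, 18 gains and 6 losses in DKO, and the 19, 25 and 8 CHH losses. Beyond 0.2, 0 remained in every class. Requiring both WT libraries under 80% left 3 of 6 CG losses in DKO. Counting every entry or distinct coordinates, keeping protein-coding members, and leaving out the 1 region that overlaps a region of another gene kept each count within 1.5 times.

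With the replicate block, that is from same-numbered library pairs only, gene-body CG medians were 20.8, 21 and 19.8 points and gene-body CHH medians -18.2, -19 and -18.8 points in Mutyh-/-, Ogg1-/- and DKO. The labels do not say that equal numbers mark the same animal or day, so the block may join unrelated libraries. Leaving out 1 library at a time moved the median CHH TES difference in Mutyh-/- (-19.5 points, 3 regions) between -22.5 and -17 points. The Ogg1-/- median over 2 TSS gains and 2 TSS losses, -0.875 points, ranged between -2.25 and 0.25 points and changed sign without WT replicate 2, and it describes neither direction. Among 74 named regions, 78 of these 370 values moved by more than the spread between libraries, with sizes between 14.5 and 37.5 points. Their direction could not change, since a call required the same direction in all 4 pairs.

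Gene length moved the shares of channel genes called, for CG to 9.72%, 10% and 42.3% (under 50 kb, 50 to 200 kb, over 200 kb) in Mutyh-/-, to 6.94% and 34.6% (shortest and longest class) in Ogg1-/- and to 8.33% and 50.0% in DKO. For CHH they were 6.94% and 23.1% in Mutyh-/-, 5.56%, 27.5% and 38.5% in Ogg1-/-, and 1.39% and 11.5% in DKO. The share of gains in gene bodies was 0% under 50 kb and 100% from 50 to 200 kb in Mutyh-/- and in DKO, and 100% over 200 kb in Mutyh-/-. Depth per region is unknown and limits every value.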
